A study of Mus musculus with 20 samples.

Results

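The 9 genes described here, Drd1, Drd2, Adora2a, Ppp1r1b, Rgs9, Pde10a, Penk, Tac1 and Gpr6, are classical markers of the medium spiny neurons of the striatum, and were taken by symbol from the 46078 genes of the count tables. Polyadenylated RNA was sequenced from brain tissue of aged (18 months) male wild-type C57BL/6J mice, 7 weeks after DH stroke. In this model the distal middle cerebral artery is permanently occluded and the mouse is kept in hypoxia, which places the infarct in the cortex. From 1 week after stroke the mice were injected subcutaneously 3 times per week for 6 weeks with vehicle (phosphate-buffered saline) or with 4 g/kg HPBCD (hydroxypropyl-β-cyclodextrin, a ring of sugars that binds cholesterol). The infarct was cut out by eye and the tissue beside it (peri-infarct) was dissected, together with the matching tissue of the other hemisphere (contralateral). This gave 4 groups of 5 libraries: vehicle contralateral, vehicle peri-infarct, HPBCD contralateral and HPBCD peri-infarct, all of them from mice with a stroke.

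Medium spiny neurons are the inhibitory projection neurons that make up most of the striatum. They fall into 2 classes: cells of the direct pathway carry the D1 dopamine receptor and substance P, and cells of the indirect pathway carry the D2 dopamine receptor, the adenosine receptor encoded by Adora2a, and enkephalin. Dopamine raises cAMP through the D1 receptor and lowers it through the D2 receptor, and the phosphodiesterase encoded by Pde10a breaks cAMP down in both classes. The overlying cortex holds few transcripts of most of these genes, although some cortical neurons also use Drd1, Penk, Tac1 and Ppp1r1b, so that their levels in dissected tissue also reflect how much striatum a piece contains.

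All 9 members were present in the tables and passed the filter on low counts over the 20 libraries. Their positions on GRCm38 (GENCODE M21) were as follows. Drd1 (ENSMUSG00000021478), the D1 receptor gene, lies at chr13:54051183-54055705 on the minus strand, and Tac1 (ENSMUSG00000061762), which encodes the precursor of substance P, at chr6:7554879-7565834 on the plus strand. Drd2 (ENSMUSG00000032259) lies at chr9:49340627-49408177 on the plus strand, Adora2a (ENSMUSG00000020178) at chr10:75316877-75334784 on the plus strand, Penk (ENSMUSG00000045573), the precursor of the enkephalins, at chr4:4133531-4138819 on the minus strand, and Gpr6 (ENSMUSG00000046922), an orphan receptor that raises cAMP, at chr10:41069977-41072285 on the minus strand. Of the members shared by both classes, Ppp1r1b (ENSMUSG00000061718), the dopamine- and cAMP-regulated inhibitor of protein phosphatase 1, lies at chr11:98348404-98357796 on the plus strand, Rgs9 (ENSMUSG00000020599), which speeds the switching off of G proteins, at chr11:109225355-109298129 on the minus strand, and Pde10a (ENSMUSG00000023868) at chr17:8525372-8986648 on the plus strand. Penk shares 233 exonic bases with a gene on the other strand and Ppp1r1b shares 460, so their counts are uncertain to that extent, because whether the counting used strand is not given in the sources used here. The exons of the other 7 members overlap no other annotated gene.

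Because the 9 genes separated the same libraries into a low and a high set, the sequences before their start sites were compared. RefSeq entries (GRCm38.p6) were matched for 6 of the 9 members; no entry was matched for Adora2a, Ppp1r1b and Penk. The 250 bases before the RefSeq start are shown for the 3 members whose window lies wholly outside the GENCODE gene, on the strand of the gene, with matches to TGACGTCA (the cAMP response element), its half-site TGACG, the GC box GGGCGG and the TATA box TATAAA, on either strand, in capitals.
Drd2 (chr9:49340153-49340402, plus strand): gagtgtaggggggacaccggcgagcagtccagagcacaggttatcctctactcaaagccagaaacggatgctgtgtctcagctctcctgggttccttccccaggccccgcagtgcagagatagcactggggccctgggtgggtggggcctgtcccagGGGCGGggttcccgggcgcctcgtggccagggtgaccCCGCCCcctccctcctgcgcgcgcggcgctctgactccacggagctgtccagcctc
Gpr6 (chr10:41072291-41072540, minus strand): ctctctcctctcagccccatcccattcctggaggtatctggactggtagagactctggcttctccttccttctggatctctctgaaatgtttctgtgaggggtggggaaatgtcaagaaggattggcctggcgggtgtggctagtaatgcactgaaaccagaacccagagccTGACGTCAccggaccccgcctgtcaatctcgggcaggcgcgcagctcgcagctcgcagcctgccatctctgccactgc
Rgs9 (chr11:109298182-109298431, minus strand): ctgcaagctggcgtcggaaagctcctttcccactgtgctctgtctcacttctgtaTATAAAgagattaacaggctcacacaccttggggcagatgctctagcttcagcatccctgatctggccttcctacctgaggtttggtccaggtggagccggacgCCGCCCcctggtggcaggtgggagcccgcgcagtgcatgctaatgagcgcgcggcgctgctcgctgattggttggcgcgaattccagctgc
The Gpr6 window held the full cAMP response element, which contains the half-site on both strands; 1.55% of 32851 windows of the same length held it. Drd2 held 2 GC boxes and Rgs9 held 1 GC box and 1 TATA box, letters found in 32.7% and 12.4% of all windows. No motif searched was shared by all 3 windows. The windows of Tac1, Drd1 and Pde10a, which do not lie wholly outside the gene, are not shown. That of Tac1 held 1 GC box and 2 half-sites. Drd1 and Pde10a each had 1 window with 1 GC box and another without a match. These matches describe the letters and show no binding.

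The 20 libraries held 14445021 to 22171627 gene counts each, with a median of 19008532, and a count of 3, used as a floor, was equal to 0.135 to 0.208 CPM (counts scaled to a common library total, with TMM factors, as are all levels given here). HPBCD contralateral replicate 4 had the largest share of read pairs without a feature (9.5%, against at most 5.86% in the other 19) and of ambiguous pairs (8.03%, against at most 4.16%). Vehicle contralateral replicate 1 stood apart in the members themselves: it was above the other 9 contralateral libraries and above all 10 peri-infarct libraries in 9 of 9 members. Results that rest on it are given with and without it. The treatment labels were checked on genes for which the paper names a direction under HPBCD. In the peri-infarct libraries 32 of 32 such genes had fitted differences opposite to that direction, and 18 of them were called with edgeR, beside 21.4% of 16224 genes. The paper chose these genes on these same samples, so they are not independent checks. Whether the labels or the named directions are exchanged was not tested. If the labels are, every difference between treatments and every interaction below changes sign. Groups are therefore called by their labels (labelled HPBCD, labelled vehicle). Labels do not state that each library came from its own animal, but in 10 of 10 cases the peri-infarct and contralateral library of one number share an identifier, which was taken as the animal. Their p-values measure the spread between these libraries.

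The members of the direct pathway are described first. In CPM, Drd1 was 98.0, 5.72, 7.82, 12.8 and 17.4 in vehicle contralateral replicates 1 to 5 and 28.5, 30.5, 58.5, 41.5 and 20.4 in vehicle peri-infarct replicates. It was 7.39, 13.5, 7.17, 11.3 and 8.06 CPM in HPBCD contralateral and 55.6, 18.7, 49.5, 58.7 and 64.6 CPM in HPBCD peri-infarct replicates. The lowest peri-infarct library, HPBCD replicate 2, was above the highest contralateral library other than vehicle replicate 1. Tac1 was 101 CPM in vehicle contralateral replicate 1, 7.51 to 13.3 CPM in the other 9 contralateral libraries and 16.2 to 66.4 CPM in the 10 peri-infarct libraries. Both direct-pathway genes therefore had 10 of 10 peri-infarct libraries above those 9 contralateral libraries.

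Among the indirect-pathway members, Drd2 had the lowest contralateral levels and the widest range. It was 72, 0.981, 0.118, 0.489 and 0.836 CPM in vehicle contralateral replicates 1 to 5, from 1310, 18, 2, 9 and 17 counts. In HPBCD contralateral replicates it was 0.699, 1.01, 0.276, 0.989 and 0.169 CPM, from 14, 20, 4, 13 and 3 counts. Vehicle contralateral replicate 3 and HPBCD contralateral replicate 5 were thus at or under the floor, and 1 contralateral library was above every other library of the series. In peri-infarct libraries Drd2 was 18.8, 15.2, 43.5, 22 and 3.21 CPM with vehicle and 29.5, 11.2, 25.1, 41.7 and 34.7 CPM with HPBCD. Vehicle peri-infarct replicate 5 was the lowest of these and was still above the other 9 contralateral libraries.

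Adora2a gave the same order of these sets of libraries, from 1.05 to 4.18 CPM in the 9 contralateral libraries to 12.1 to 112 CPM in the peri-infarct libraries, with 184 CPM in vehicle contralateral replicate 1. Penk was 1214 CPM in vehicle contralateral replicate 1, 46.0 to 118 CPM in the other 9 and 85.5 to 798 CPM in peri-infarct libraries. Gpr6 was 55.0 CPM, 1.13 to 4.40 CPM and 4.12 to 25.9 CPM in the same sets of libraries. For Penk and Gpr6 vehicle peri-infarct replicate 5 (85.5 and 4.12 CPM) lay inside the range of the 9 contralateral libraries and the other 9 peri-infarct libraries lay above it.

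Of the members used by both classes, Rgs9 was 4.68 to 10.7 CPM in the 9 contralateral libraries, 22.6 to 150 CPM in the peri-infarct libraries and 224 CPM in vehicle contralateral replicate 1. Ppp1r1b had the smallest separation of the regions: it was 50.2 to 76.5 CPM in the 9 contralateral libraries, 61.6 to 380 CPM in peri-infarct libraries and 580 CPM in vehicle contralateral replicate 1. Pde10a was 26.7 to 56.8 CPM, 55.3 to 307 CPM and 526 CPM in these sets. Vehicle peri-infarct replicate 5 was inside the contralateral range for Ppp1r1b and Pde10a as well, so 5 of the 9 members (Drd1, Tac1, Drd2, Adora2a and Rgs9) had all 10 peri-infarct libraries above the other 9 contralateral libraries, a pattern met by 5.19% of 16758 genes.

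**Figure D1:**
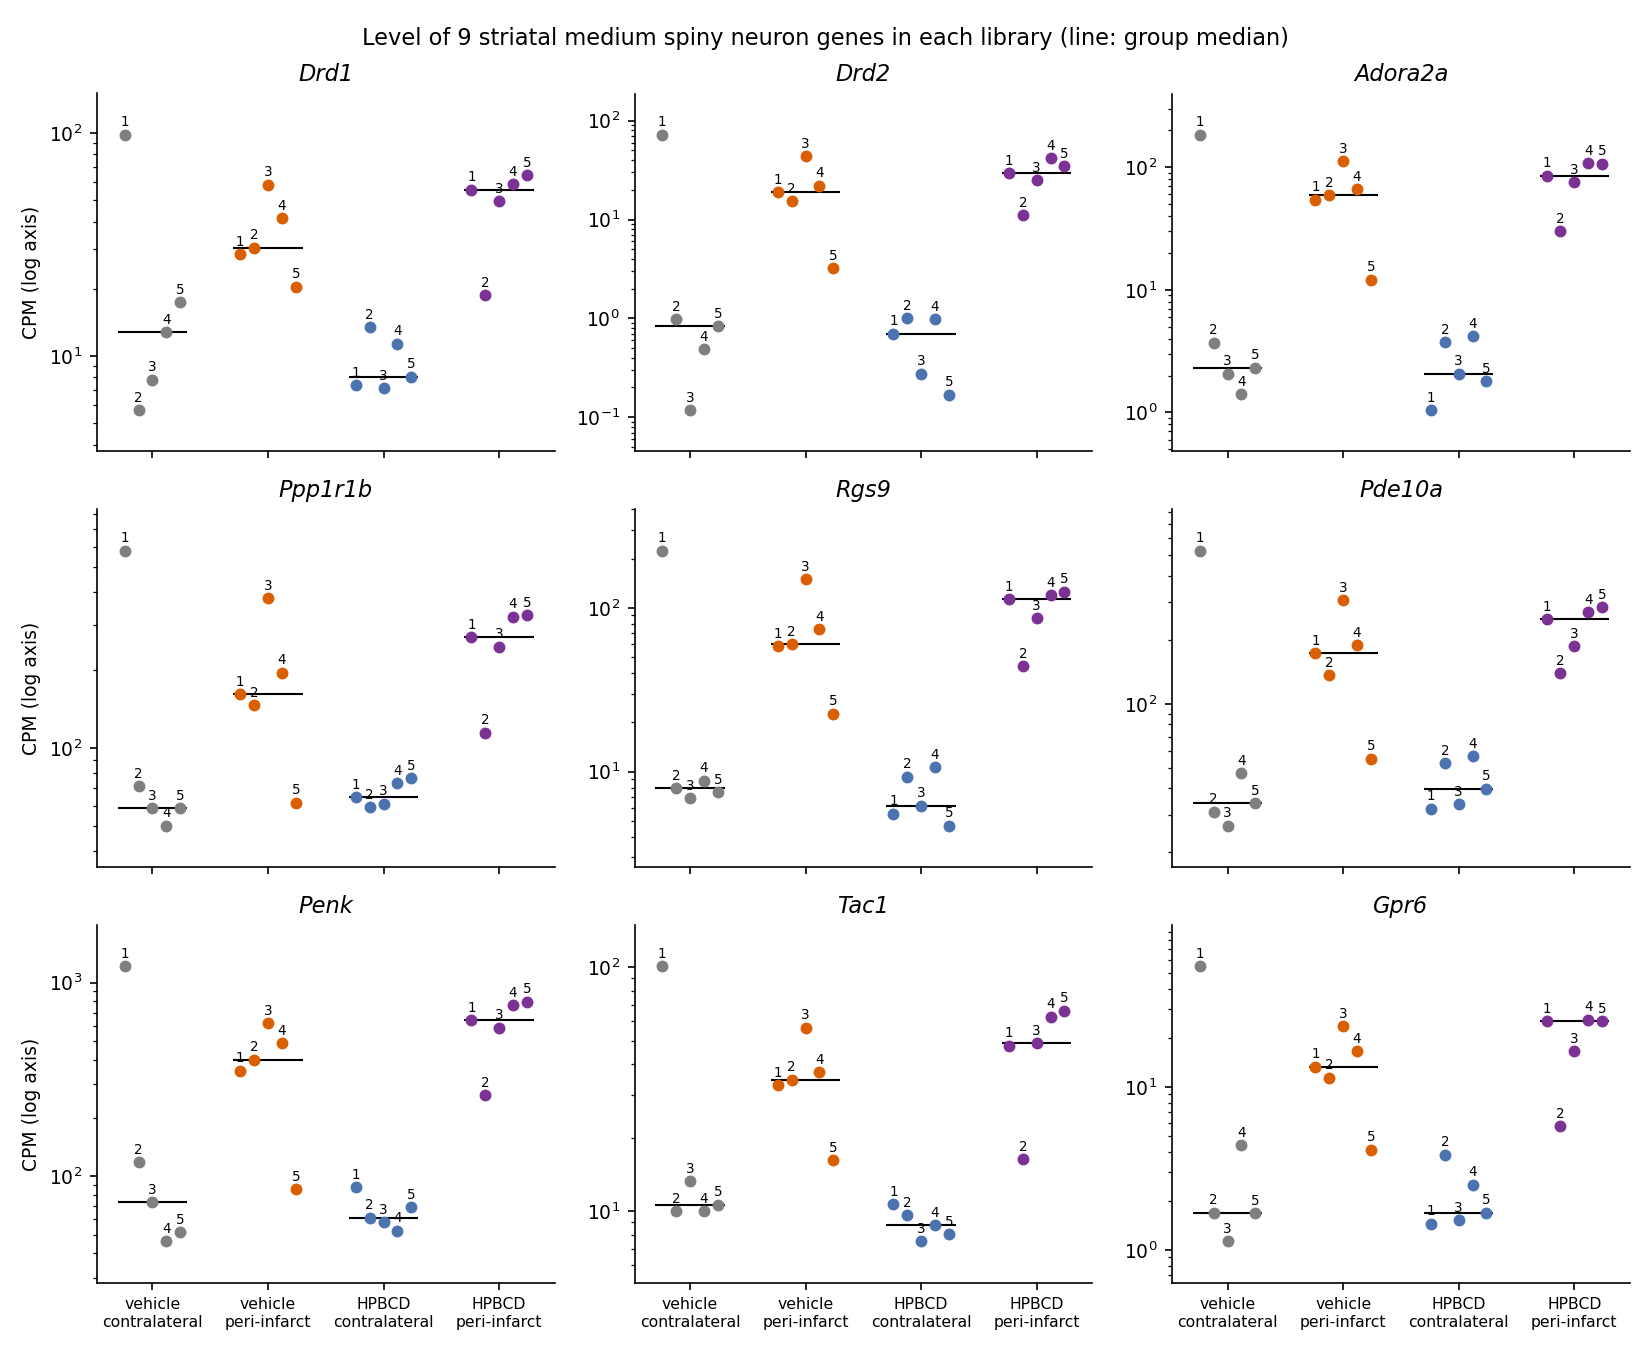
Level of each member in CPM (log axis) in the 20 libraries, by group, with the replicate number above each point and a line at the group median. Vehicle contralateral replicate 1 is the highest library in all 9 panels, and vehicle peri-infarct replicate 5 the lowest peri-infarct library in 8 of them.

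Per kilobase of exon, the only scale on which levels of different genes are compared here, Penk was highest in the HPBCD peri-infarct libraries at 373 ± 130 CPM per kb, followed by Ppp1r1b at 87.3 ± 29.3 and Adora2a at 26.5 ± 10.4 (SD, n = 5). Pde10a (17.6 ± 4.8 CPM per kb), Rgs9 (15.3 ± 5.25), Tac1 (14.2 ± 5.81), Drd1 (13.6 ± 4.97), Drd2 (11.2 ± 4.5) and Gpr6 (11.1 ± 4.92) came after them, and each of these differed from its neighbour in the order by less than their SD. In HPBCD contralateral libraries the order changed below the first pair: Penk was 40.2 ± 8.56 CPM per kb and Ppp1r1b 22.9 ± 2.6, then Pde10a 3.35 ± 0.862, Tac1 2.63 ± 0.371 and Drd1 2.61 ± 0.768, while Drd2 was last at 0.247 ± 0.154 (SD, n = 5).

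The peri-infarct and contralateral libraries of mice labelled HPBCD were compared first, because vehicle contralateral replicate 1 does not enter that comparison. All 9 genes were higher in peri-infarct tissue, from 1.93 for Ppp1r1b to 5.47 for Drd2 on the log2 scale. The indirect-pathway genes and Rgs9 rose most and the direct-pathway genes, Pde10a and Ppp1r1b least, although no test of the difference between genes was made. In bulk tissue, more cells of a type and more RNA per cell cannot be told apart.

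Of 9 members tested with edgeR over all genes of the table, 9 were called higher at an adjusted p-value under 0.05, against 30.3% of the 16047 genes tested in that direction and 24.3% called lower. Drd2 rose by a log2 fold change of 5.47 (SE 0.424, adjusted p = 9.63e-07, edgeR) and Adora2a by 4.99 (SE 0.399, adjusted p = 1.11e-06). Rgs9 rose by 3.75 (SE 0.298), Penk by 3.20 (SE 0.261) and Gpr6 by 3.15 (SE 0.398). Tac1 (2.42, SE 0.289), Pde10a (2.39, SE 0.213), Drd1 (2.37, SE 0.289) and Ppp1r1b (1.93, SE 0.220) made up the rest, and the largest adjusted p of the 9 was 2.82e-05. In 9 of 9 members every HPBCD peri-infarct library was above every HPBCD contralateral library, a pattern also met by 24.3% of all genes tested. The count stayed at 9 in every alternative run, HPBCD contralateral replicate 4 and HPBCD peri-infarct replicate 2 left out included.

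Within animals, all 9 members were higher in the peri-infarct than in the contralateral piece of each of the 5 mice labelled HPBCD. The median difference of the 9 members in log2 CPM was 2.96, 1.40, 3.33, 3.32 and 3.52 in animals 1 to 5. Animal 2 had the smallest difference, and its peri-infarct library was the lowest of its group in 9 of 9 members. That library also held 175 CPM of Fibcd1, a gene of hippocampal CA1 neurons, against 6.89 to 7.82 CPM in the other 4 libraries of its group. The part of this in the members' lower level was not tested.

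Other transcripts of medium spiny neurons moved in the same direction. Of 18 listed genes matched, 17 were tested in the libraries labelled HPBCD, and 13 were higher and 1 lower in peri-infarct tissue, with a median log2 fold change of 1.09, beside 0.03 over all genes. Syndig1l, a gene enriched in the striatum, rose by 4.21 (SE 0.305), Gng7, the G protein subunit that couples the D1 and adenosine receptors to adenylate cyclase, by 2.46 (SE 0.166), and Adcy5, their main adenylate cyclase, by 1.51 (SE 0.148). Rgs7bp, which anchors G protein regulators at the membrane, fell by 0.64 (SE 0.143). Gnal (0.35, adjusted p = 0.0652), Arpp21 (0.29, adjusted p = 0.174) and Chrm4 (-0.13, adjusted p = 0.484, edgeR) were not called.

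Isl1, a transcription factor of developing direct-pathway and cholinergic neurons, was read at 0 or 1 count in the 5 HPBCD contralateral libraries and at 32 to 112 counts in the 5 HPBCD peri-infarct libraries, which is 1.62 to 6.18 CPM. It had 0 counts in vehicle contralateral replicates 2 to 5 and 122 counts in replicate 1.

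Of 14 signalling partners of the receptors and peptides tested in this comparison, 2 were called higher and 4 lower, beside the 30.3% and 24.3% of all genes. By sign 6 were positive and 8 negative, with a median log2 fold change of -0.14. Tacr1, the substance P receptor, rose by 2.48 (SE 0.326) and Ddc, which makes dopamine from its precursor, by 0.54 (SE 0.146). Cdk5, a kinase that acts on the Ppp1r1b protein, fell by 0.67 (SE 0.0987), Ppp3ca, a subunit of calcineurin, by 0.57 (SE 0.177), and the catalytic subunits of protein kinase A, Prkacb and Prkaca, by 0.54 (SE 0.141) and 0.46 (SE 0.0880). The opioid receptors tested, Oprd1 (-0.53, adjusted p = 0.12) and Oprk1 (-0.19, adjusted p = 0.705), were not called.

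Markers of other cells moved with the members in this comparison. Of the striatal cholinergic interneuron list, 3 of 3 genes tested were higher in peri-infarct tissue, and the summed level of its 5 genes was 6.79 to 16.6 CPM against 0.758 to 1.75 CPM. The ependymal list was higher in 5 of 5 genes, with a sum of 80.3 to 158 CPM against 7.19 to 12.2 CPM. The 8 cortical glutamatergic genes summed to 496 to 1680 CPM against 1940 to 2280 CPM, with 7 of 8 lower, and reactive astrocyte genes were higher in 4 of 4. The list for neurons in general went against the members, lower in 8 of 8 genes with a sum of 3280 to 5940 CPM against 11000 to 11900 CPM, and cortical interneuron genes were lower in 7 of 8. Oligodendrocyte genes were higher in 4 of 4, microglia and macrophage genes in 5 of 5, astrocyte genes in 3 of 4 and hippocampal genes in 4 of 5. Of the olfactory tubercle and pallidum list, 2 of 3 genes tested were higher and 1 lower (median log2 fold change 2.89), with sums of 74.7 to 137 CPM against 30.6 to 39.7 CPM. Subventricular zone and neuroblast genes were higher in 3 and lower in 3 of 7, thalamic genes higher in 2 and lower in 1 of 6, choroid plexus genes higher in 1 of 4 tested and endothelial genes lower in 1 of 3. No gene of these lists was at 0 in all 5 libraries of a group. Their part in the members' difference was not tested.

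The same comparison of regions in mice labelled vehicle rested on 1 library. With all 10 libraries, none of the 9 members was called with edgeR, where 20.2% of 15801 genes tested were. The fitted log2 fold changes ran from 0.10 for Gpr6 to 0.64 for Adora2a, with adjusted p from 0.735 to 0.956 and SE from 0.654 to 1.23. No member was under an unadjusted p of 0.05, beside 34.4% of these genes. DESeq2 called 0 members and 22% of all genes, and limma voom with quality weights called 3 of 9 members and 32.1% of all genes. The limma voom values were higher than those of edgeR, at 0.87 to 3.88, and 8 of 9 members were under an unadjusted p of 0.05 there, beside 43.5% of all genes. In edgeR with the replicate block, which pairs the regions by animal, values were 0.83 to 3.23. Then 0 of 9 members were called, beside 3053 of 15801 genes, and 3 of 9 were under an unadjusted p of 0.05, beside 5595. Without vehicle contralateral replicate 1, 9 of 9 members were called higher, beside 11.1% of 16018 genes, by 1.67 for Ppp1r1b to 5.04 for Drd2, with adjusted p of 0.00323 to 0.0173.

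Without that library the same 3 genes led as in mice labelled HPBCD, and Ppp1r1b was again lowest. Drd2 (5.04, SE 0.742), Adora2a (4.68, SE 0.583) and Rgs9 (3.23, SE 0.451) had the highest fitted log2 fold changes. Gpr6 (2.63, SE 0.506), Penk (2.43, SE 0.486) and Pde10a (2.31, SE 0.398) came next, and Drd1 (1.71, SE 0.358), Tac1 (1.69, SE 0.286) and Ppp1r1b (1.67, SE 0.399) were lowest. For 6 of 9 members the 5 vehicle peri-infarct libraries were then all above the 4 remaining contralateral libraries, as were 8.85% of 15801 genes. With all 5 contralateral libraries 0 of 9 members were so, beside 6.72% of these genes. Other striatal genes gave 0 calls of 17 with all libraries and 11 higher of 17 without replicate 1. Among the markers of other cells, without replicate 1, cholinergic interneuron genes were then higher in 3 of 4 tested, reactive astrocyte genes in 4 of 4, astrocyte genes in 3 of 4, microglia and macrophage genes in 5 of 5 and choroid plexus genes in 2 of 4. Neurons in general were lower in 3 of 8 genes, cortical interneurons in 3 of 8 and cortical glutamatergic neurons in 2 of 8. Ependymal genes were higher in 1 of 5, hippocampal genes in 1 of 5 and olfactory tubercle and pallidum genes in 1 of 3 tested. Thalamic genes were higher in 2 and lower in 1 of 6, and subventricular zone and neuroblast genes were lower in 1 of 7. Of the oligodendrocyte and endothelial lists 0 genes were called. Their part in the members' difference was not tested.

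Within animals, 4 of 5 mice labelled vehicle had all 9 members higher in the peri-infarct piece, with median differences in log2 CPM of 2.39, 3.52, 2.0 and 0.74 in animals 2 to 5. In animal 1 all 9 were lower in the peri-infarct piece, by -2.04 to -1.60. The difference of this animal lay on the contralateral side, since its peri-infarct library (Drd1 28.5 CPM, Drd2 18.8 CPM) was within the range of its group.

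**Figure D2:**
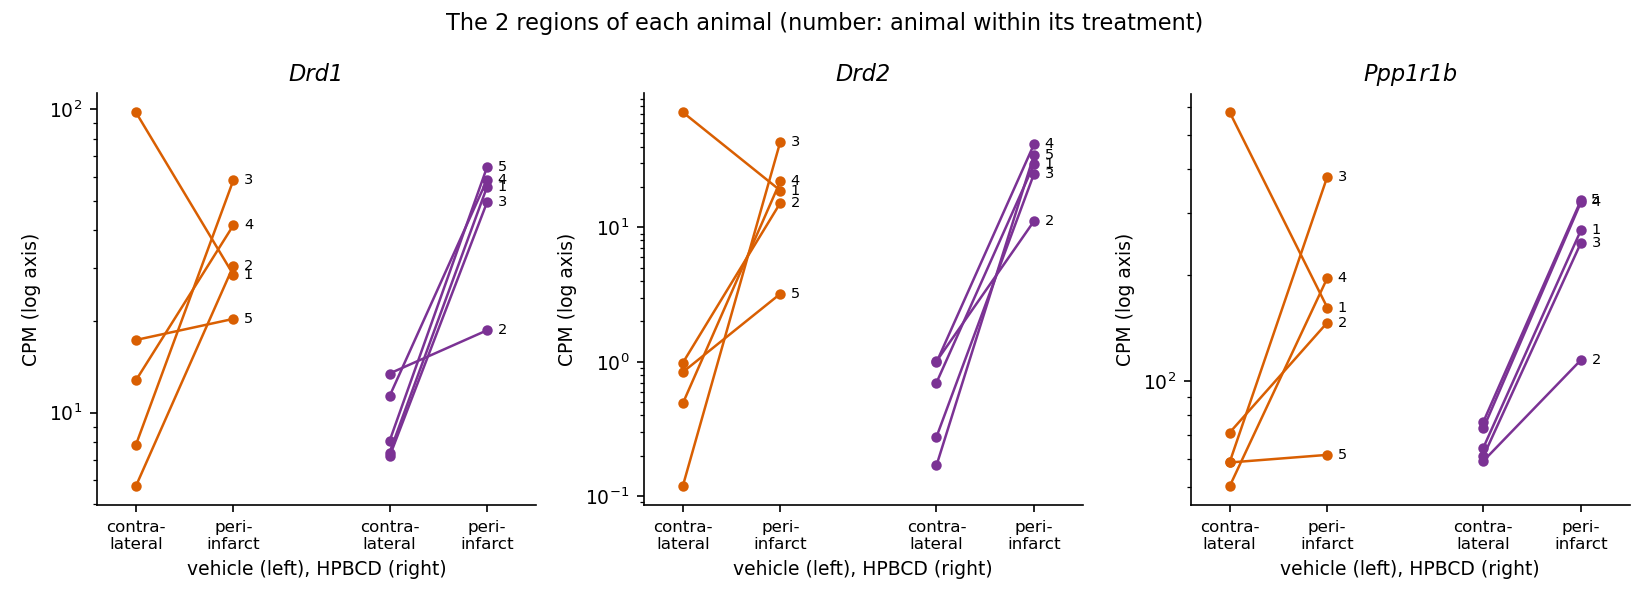
Drd1, Drd2 and Ppp1r1b in CPM (log axis) in the contralateral and the peri-infarct piece of each animal, joined by a line, vehicle on the left and HPBCD on the right of each panel. The lines rise in 9 of 10 animals and fall in vehicle animal 1, whose contralateral piece had 98.0, 72 and 580 CPM of the 3 genes.

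The library that decided this comparison was high in the whole set of striatal transcripts. Relative to the mean of the other 4 vehicle contralateral libraries, vehicle contralateral replicate 1 was 8.97-fold higher for Drd1, 9.19-fold for Tac1, 9.72-fold for Ppp1r1b, 15.1-fold for Pde10a and 16.8-fold for Penk. For Gpr6 it was 24.8-fold higher, for Rgs9 28.8-fold, for Adora2a 77.5-fold and for Drd2 119-fold. Against the highest of the 10 peri-infarct libraries it was still 1.5-fold to 2.12-fold higher.

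All 18 other striatal genes, too, were above the other 9 contralateral libraries in this library, as were 13.7% of the 16758 genes past the filter. For 1 of the 18 this rested on at most 3 counts, the floor. Only 0.764% of the 16758 genes were at least 4-fold above the mean of the other 4 vehicle contralateral libraries. Of the striatal cholinergic interneuron list 4 of 5 genes were above the other 9 contralateral libraries, with Chat at 7.04 CPM against 0.138 to 0.507 CPM and Slc5a7 at 12.3 CPM against 0.414 to 1.01 CPM. The cortical glutamatergic list was below the other 9 in 7 of 8 genes, and the list for neurons in general in 4 of 8, beside 13.1% of all genes. The cortical glutamatergic sum of 1480 CPM compared with 2000 to 2290 CPM in the other vehicle contralateral libraries. Of the oligodendrocyte list 3 of 4 genes, and of the olfactory tubercle and pallidum list 2 of 4, were above the other 9. So were 7 of 17 signalling partners and 2 of 5 hippocampal genes. Cortical interneuron genes were above in 1 and below in 3 of 8, and subventricular zone and neuroblast genes above in 2 and below in 3 of 7. Thalamic genes were below in 2 of 6. Reactive astrocyte genes, at a sum of 278 CPM, were within the range of the other vehicle contralateral libraries (188 to 366 CPM) and below all vehicle peri-infarct libraries (697 to 3600 CPM).

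**Figure D3:**
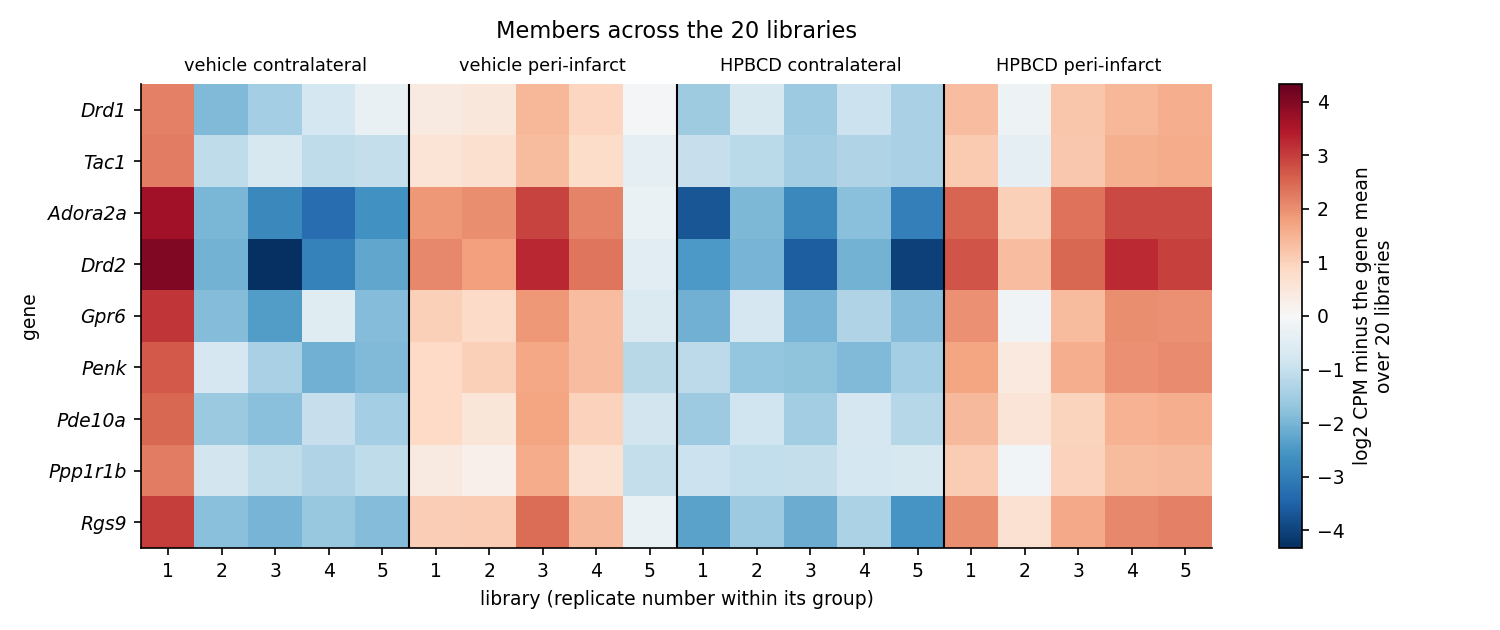
Log2 CPM of each member minus its mean over the 20 libraries, members in rows (direct pathway, indirect pathway, both) and libraries in columns by group. Vehicle contralateral replicate 1 lies above the gene mean in every row, while the other 9 contralateral libraries lie below it.

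Whether the treatments differed was asked in each region. In peri-infarct tissue the fitted levels were higher in libraries labelled HPBCD than in those labelled vehicle for all 9 members, by 0.38 for Pde10a to 0.64 for Penk on the log2 scale, but none was called with edgeR (adjusted p = 0.285 to 0.544), where 21.4% of 16224 genes were. None was under an unadjusted p of 0.05, beside 39.2% of genes. DESeq2 and limma voom called 0 members, beside 26.3% and 37.1% of all genes, and limma voom, with differences of 0.64 to 0.97, had 4 of 9 under an unadjusted p of 0.05, beside 48% of all genes. For Penk the approximate 95% interval of the difference ran from -0.20 to 1.48, and for Drd2 from -0.54 to 1.46, so that both intervals held differences of either sign and of more than 1 on the log2 scale. In 0 of 9 members were all libraries labelled HPBCD above all those labelled vehicle, beside 7.46% of the genes tested.

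Vehicle peri-infarct replicate 3 was the highest of its group in 9 of 9 members and replicate 5 the lowest of all 10 peri-infarct libraries in 8 of 9, while HPBCD replicate 2 was lowest of its group in 9 of 9. The highest HPBCD library was replicate 4 or 5 in 9 of 9 members, and in 4 of 9 (Drd1, Penk, Tac1 and Gpr6) it was above all vehicle peri-infarct libraries. Without vehicle peri-infarct replicate 3 the fitted differences were 0.67 to 0.93, without replicate 5 they were 0.15 to 0.39, and no member was called in either. Isl1 was the gene called among 17 other striatal genes, higher by 1.23 (SE 0.368, adjusted p = 0.0383, edgeR) in libraries labelled HPBCD. Of 15 signalling partners 0 were called higher and 2 lower, beside 12.4% and 9% of all genes.

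Markers of other cells also differed between the treatments in peri-infarct tissue. Neurons in general were lower in 6 of 8 genes in libraries labelled HPBCD, with sums of 3280 to 5940 CPM against 5780 to 8020 CPM, and cortical glutamatergic genes in 4 of 8, with 496 to 1680 CPM against 1470 to 2070 CPM. The ependymal list was higher in 3 of 5 genes (80.3 to 158 CPM against 22 to 53.9 CPM) and the choroid plexus list in 2 of 4 tested (26.2 to 681 CPM against 6.17 to 75.8 CPM). Cortical interneuron genes were lower in 2 of 8. Over all genes tested in this comparison 12.4% were called higher and 9% lower. Of the cholinergic interneuron, hippocampal, oligodendrocyte, microglia and macrophage, and endothelial lists 0 genes were called, and of each other list at most 1 in a direction. No gene of the marker lists was at 0 in all 5 libraries of either group. Their part in the members' values was not tested.

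In contralateral tissue none of the 9 members was called (adjusted p = 0.544 to 0.626, edgeR), nor any other gene (0% of 15469 tested, with 53 called by DESeq2). Fitted log2 fold changes were -4.56 for Drd2 to -1.30 for Ppp1r1b and 8 of 9 members were under an unadjusted p of 0.05, beside 1224 genes of the table, or 7.91%. These values depended on the fit: they were -0.76 to -0.05 with limma voom and -2.31 to -0.30 with the replicate block. In both, 0 of 9 members were under an unadjusted p of 0.05, beside 18.7% and 7.09% of all genes. Between treatments the block joined different mice by replicate number only, so it was not a pairing by animal. DESeq2 gave a p-value for 1 of the 9 members and called 0, and limma voom called 0. Without vehicle contralateral replicate 1 the values were -0.30 for Tac1 to 0.29 for Pde10a, 4 of 9 had turned positive and none was called. For Drd2 the approximate 95% interval was then -1.08 to 1.13, and for Ppp1r1b, with the highest counts of the members but Penk, -0.06 to 0.37. The comparisons share libraries: the vehicle contralateral libraries enter both this one and the vehicle comparison of regions.

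The region by treatment interaction asks whether the difference between regions differed between treatments. It was 1.73 for Ppp1r1b to 5.02 for Drd2 on the log2 scale over all 20 libraries, with 0 of 9 members called (adjusted p = 0.0587 to 0.166, edgeR), beside 9.41% of 16758 genes. Under an unadjusted p of 0.05 were 9 of 9 members and 28.9% of all genes. DESeq2 called 4 of 9 members, beside 14.5% of all genes, and limma voom 0, beside 24.5%. With limma voom the interaction was 0.77 to 1.75, and 2 of 9 members were under an unadjusted p of 0.05, beside 38% of all genes. In edgeR with the replicate block, here by animal, it was 0.96 to 2.33. Then 0 of 9 members were called, beside 1830 of 16758 genes, and 0 of 9 were under an unadjusted p of 0.05, beside 5140. Without vehicle contralateral replicate 1 the interaction was 0.09 for Pde10a to 0.78 for Penk and 0 of 9 were called (adjusted p = 0.297 to 0.926) or under an unadjusted p of 0.05, beside 5.44% and 25.4% of all genes. Leaving out other libraries gave 3 calls without vehicle peri-infarct replicate 3 (16.8% of all genes), 4 without vehicle contralateral replicate 4 (12%), 2 without vehicle contralateral replicate 5 (7.23%) and 5 without HPBCD peri-infarct replicate 2 (18.4%). A positive interaction was called for 4 of 5 ependymal genes with all libraries and 3 of 5 without vehicle contralateral replicate 1, and a negative one for 5 of 8 and 3 of 8 genes of neurons in general and for 5 of 8 and 2 of 8 cortical glutamatergic genes. Their part in the interaction of the members was not tested.

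**Figure D4:**
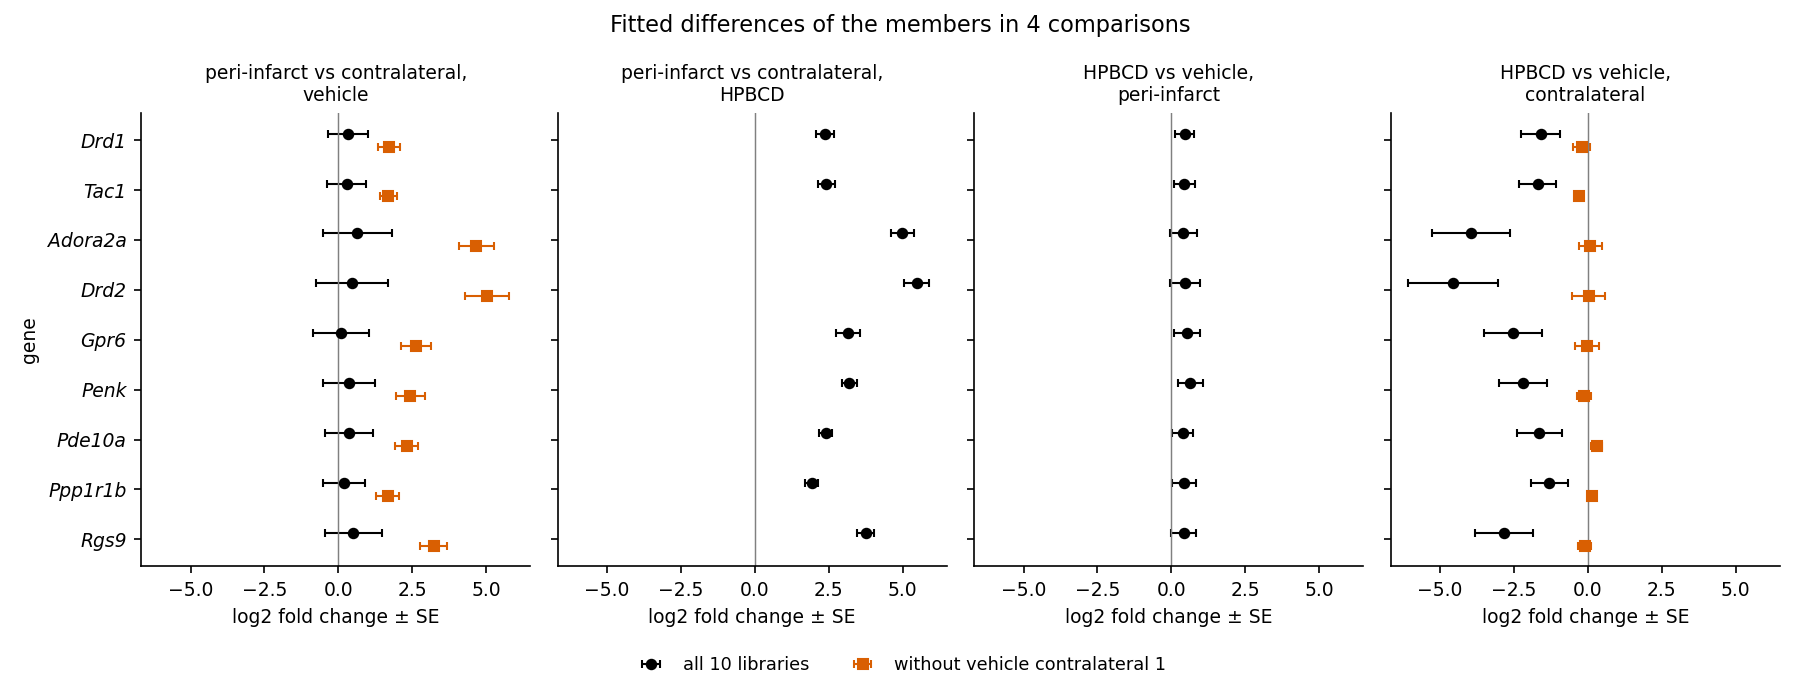
Fitted log2 fold change ± SE of the 9 members in 4 comparisons (edgeR), on 1 scale, with all 10 libraries (black circles) and, where it enters, without vehicle contralateral replicate 1 (orange squares). In the vehicle comparison of regions the values move from 0.10 to 0.64 up to 1.67 to 5.04 when that library is left out, and in the contralateral comparison of treatments from -4.56 to -1.30 up to -0.30 to 0.29.

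Transcripts of the 2 classes of neuron were set against each other as differences of log2 CPM, which are not corrected for length and serve only to compare libraries. Some cortical neurons also use Drd1, Tac1 and Penk, so these differences are not a measure of the balance between the classes. The part of cortical transcripts in them was not tested. Drd1 exceeded Drd2 by 0.96 ± 0.62 (SD) over the 10 peri-infarct libraries and by 3.95 ± 0.87 over the 9 contralateral libraries other than vehicle replicate 1, where Drd2 rested on 2 to 20 counts. Vehicle contralateral replicate 1, at 0.44, was within the peri-infarct range of 0.43 to 2.63. The high end of that range was vehicle peri-infarct replicate 5, which overlapped the contralateral range of 2.42 to 5.15.

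Between the peptide precursors the shift was smaller, with Tac1 minus Penk at -3.50 ± 0.42 in peri-infarct and -2.75 ± 0.44 in the 9 contralateral libraries. Over all members of the 2 classes, the direct minus the indirect mean was -0.57 ± 0.11 beside the infarct and 1.26 ± 0.24 on the other side in mice labelled HPBCD (SD, n = 5). In mice labelled vehicle it was -0.32 ± 0.593 and 1.035 ± 1.181 (SD, n = 5), the latter 1.493 ± 0.681 without replicate 1 (n = 4). Vehicle peri-infarct replicate 5, at 0.732, lay within the range of the 9 contralateral libraries (0.498 to 1.999). In HPBCD peri-infarct libraries the SD of Drd1 minus Drd2 was 0.19, beside SDs of 0.73 for each gene alone, but in vehicle peri-infarct libraries it was 0.88, beside 0.57 for Drd1 and 1.37 for Drd2.

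**Figure D5:**
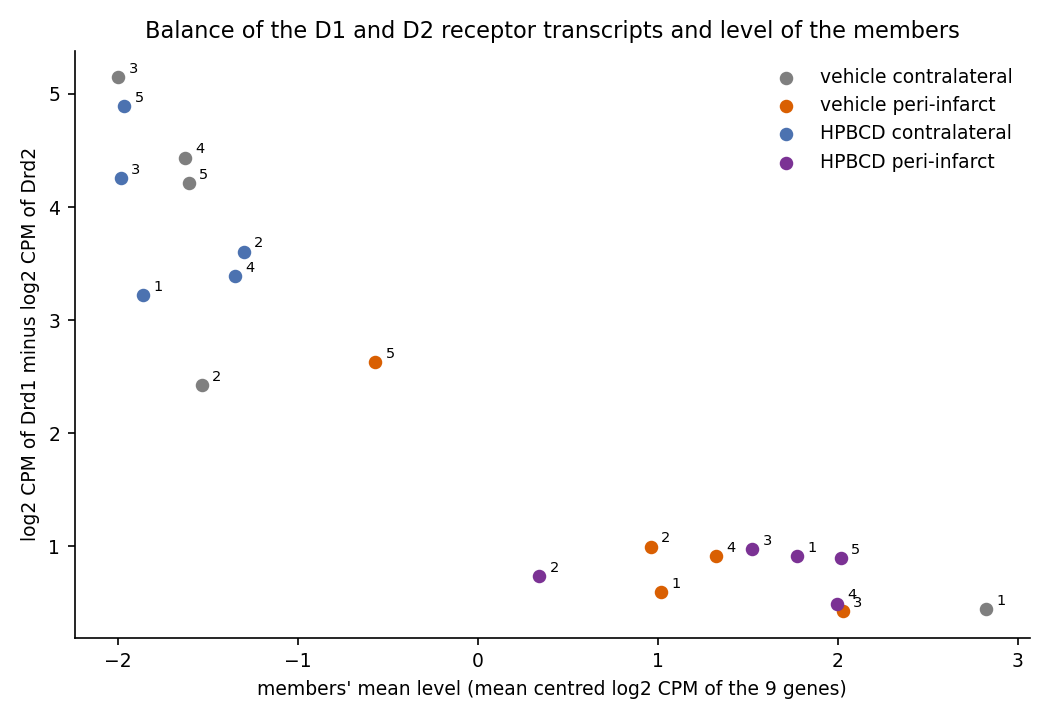
Log2 CPM of Drd1 minus that of Drd2 (vertical axis) against the mean centred log2 CPM of the 9 members (horizontal axis), 1 point per library with its replicate number, coloured by group. The other 9 contralateral libraries lie at the upper left (2.42 to 5.15), vehicle contralateral replicate 1 lies at the lower right (0.44) with 9 of the 10 peri-infarct libraries, and vehicle peri-infarct replicate 5 lies between these sets (2.63, at a mean level of -0.57).

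The members also rose and fell together within the peri-infarct libraries. Over these 10 libraries, 1 per animal, Pearson's r between the log2 CPM of members was 0.85 to 0.995 (median 0.958, 36 pairs) and Spearman's rho 0.867 to 0.988. Without the 2 libraries farthest from the median level, vehicle replicate 5 and HPBCD replicate 2, r was 0.838 to 0.984. Over the 9 contralateral libraries other than vehicle replicate 1, r was -0.789 to 0.848 with a median of 0.134. These are descriptions over libraries scaled to their own totals, and in the contralateral libraries Drd2, Gpr6 and Adora2a had 2 to 81 counts.

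In the vehicle contralateral libraries the SD of log2 CPM was 1.44 for Tac1 to 3.21 for Drd2, beside a median of 0.211 over all genes past the filter, which placed the members at or above the 99.3 percentile of spread. In the other 9 contralateral libraries it was 0.193 for Ppp1r1b to 0.907 for Drd2, beside a median of 0.214. Ppp1r1b was then at the 44.0 percentile of spread and Tac1, at 0.241, at the 56.5 percentile, while the other 7 members were at the 74.8 to 97.8 percentile. Across the 10 peri-infarct libraries the members' SDs were 0.66 for Drd1 to 1.11 for Drd2, beside a median of 0.296.

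The genes whose levels were most like the members' were sought among 11785 other genes with a mean of at least 5 CPM, by Pearson's r with the members' mean centred log2 CPM over the 20 libraries. Among the first 10 were Adcy5 (r = 0.987), Syndig1l (0.987), Slc35d3 (0.984), Rxrg (0.979), Lrrc10b (0.978), Klhl13 (0.978), Dach1 (0.977), Serpina9 (0.975) and Sp9 (0.975). Without the 2 libraries farthest from the median, vehicle contralateral replicate 1 and vehicle peri-infarct replicate 3, r was 0.967 to 0.986 for these genes. Adcy5, Syndig1l and Sp9 are also in the list of other striatal genes. Lrrc10b was 246 CPM in vehicle contralateral replicate 1, 2.15 to 4.24 CPM in the other 9 contralateral libraries and 6.56 to 266 CPM in peri-infarct libraries. Rxrg, a retinoid receptor, was 65.5, 1.36 to 3.53 and 6.75 to 73.8 CPM in the same sets. The 20 libraries come from 10 animals and fall into a low and a high set, so r mainly states that these genes separate the same libraries.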

How the data were processed

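The authors prepared stranded mRNA libraries, trimmed read pairs (Trimmomatic 0.32), aligned them to GRCm38 (STAR 2.5.2b) and counted them per Ensembl gene with htseq-count; bcl2fastq 2.19 and DESeq2 are also in the submitters' notes. The deposited values are raw counts, 1 table per library; annotation release and strand option are not given in the sources used here. Symbols, positions and exon lengths came from GENCODE M21 (45143 of 46078 genes). The 5 lines that name no gene were left out. The members and lists were chosen with earlier results of these data known.

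Each comparison of 2 groups was fitted on its 10 libraries, and the interaction on all 20, over all genes passing filterByExpr, with TMM factors, in edgeR 4.0.16 (R 4.3.3; glmQLFTest), Benjamini-Hochberg adjustment over all genes and a threshold of 0.05. The SE is the log2 fold change divided by the square root of F, and approximate 95% intervals are 1.96 SE wide on each side. Log2 CPM used a prior count of 2. Counts carry no molecular identifiers, so the floor of 3 counts covers counting error only. Named genes were the 9 members, 2 lists (other striatal genes, signalling partners), the 10 genes most like the members by Pearson's r, and cell type markers where a result turned on them. Gpr52 was not matched in the tables, and 1 gene among those most like the members is not reported here.

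Alternatives were DESeq2 1.42.0, limma voom 3.58.1 with quality weights, RLE factors, no filter, a replicate block, all 4 groups in 1 fit, and leaving out each library, or vehicle contralateral 1 and vehicle peri-infarct 5 together. The identifiers shared by same-number libraries pair the regions. Deviations of the pairs correlated with a mean r of 0.0876, and 4 of 10 pairs were over 0.1. In comparisons between treatments the replicate block joins different mice of the same number and is not a pairing by animal. Fits were tested on simulated data first. DNA windows came from RefSeq (GRCm38.p6).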

Additional observations from a re-analysis of the deposited data

Results flagged for a closer look

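In vehicle contralateral replicate 1 each of the 9 members lay far above the other 4 libraries of its group. The gap to the next library, as a share of the range of the group, was 0.874 for Drd1, 0.988 for Drd2, 0.987 for Adora2a, 0.960 for Ppp1r1b, 0.991 for Rgs9, 0.959 for Pde10a, 0.939 for Penk, 0.964 for Tac1 and 0.939 for Gpr6, where 0.71 is the limit for 5 libraries. Chance gives about 1 in 20 groups past it; 36 groups were looked at, and all 9 past it were this library, so they are 1 event seen in 9 genes. Isl1 differed between the treatments in its regional difference (log2 interaction 7.43, SE 2.09; adjusted p = 0.0337 with edgeR), and without vehicle contralateral replicate 1 the interaction was -0.24 (adjusted p = 0.694); contralateral libraries other than that one held 0 or 1 count of Isl1.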

How the results depend on the processing

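The 9 calls of the HPBCD comparison of regions held in every alternative, with the replicate block giving 9 calls and log2 fold changes of 1.86 to 5.38. The vehicle comparison of regions gave 0 calls with the replicate block (0.83 to 3.23) and 3 with limma voom (0.87 to 3.88). It gave 9 with vehicle contralateral 1 and vehicle peri-infarct 5 both left out, beside 2466 of 15833 genes. When each library was left out it gave 0 to 9, the 9 without vehicle contralateral replicate 1. Leaving out each library in turn gave -0.0026 to 5.04 for Drd2, -0.21 to 1.67 for Ppp1r1b and -0.18 to 2.63 for Gpr6 there. The negative values came without vehicle peri-infarct replicate 3 (all 3 genes), without vehicle contralateral replicates 3, 4 and 5 (Ppp1r1b, Gpr6) or without replicate 2 (Gpr6), and the highest without vehicle contralateral replicate 1. Between treatments in contralateral tissue it gave -4.88 to 0.027 for Drd2, -4.26 to 0.087 for Adora2a, -1.54 to 0.16 for Ppp1r1b and -1.91 to 0.29 for Pde10a, the positive values without vehicle contralateral replicate 1. Over the members limma voom gave -0.76 to -0.05 and the replicate block, which there joins different mice, -2.31 to -0.30. The interaction gave 4 calls with DESeq2, 0 to 5 calls when each library was left out and 0 with the replicate block (0.96 to 2.33); with vehicle contralateral 1 and vehicle peri-infarct 5 both left out Pde10a was -0.13. The causes were not tested. Neither treatment comparison called a member in any alternative, and the replicate block changed no other call. CPM without scaling factors moved each group's summed members by less than 1 SD. Depth limits Drd2, Gpr6 and Adora2a in contralateral libraries, where 1 count more or less shifts the ratio.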

Other observations

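Genes of other tissue near the dissected area were high in some libraries. Vehicle peri-infarct replicate 1 held 53.8 CPM of Fibcd1, a gene of hippocampal CA1 neurons, against 5.46 to 10.7 CPM in the other 4 libraries of its group, and HPBCD peri-infarct replicate 2 held 175 CPM. In HPBCD contralateral replicate 3 the choroid plexus list summed to 635 CPM, against a median of 6.40 CPM in its group, and Ttr, which the choroid plexus secretes, made up 575 CPM of it. Ttr was also 566, 140 and 120 CPM in HPBCD peri-infarct replicates 3, 2 and 4 and at most 44.7 CPM in the other 16 libraries, and the choroid plexus sum was 26.2 to 681 CPM in HPBCD peri-infarct libraries, with a median of 155 CPM. HPBCD contralateral replicate 3 was the lowest of its group for Drd1 (7.17 CPM, against 7.39 to 13.5 CPM in the other 4) and Tac1 (7.51 CPM, against 8.06 to 10.7 CPM), and within the range of the other 4 for Penk (57.8 CPM). Six3, a transcription factor in the olfactory tubercle and pallidum list, was 31.8 CPM in vehicle contralateral replicate 1, 0.00 to 1.31 CPM in the other 9 contralateral libraries and 2.06 to 23.4 CPM in peri-infarct libraries. Lhx8, of cholinergic neurons, was 2.80 CPM in vehicle contralateral replicate 1 and at most 0.152 CPM in those 9.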
